A study of Mus musculus with 4 samples.

Results

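Replication-dependent histone genes supply the core histones H2A, H2B, H3 and H4 and the linker histone H1 while a cell copies its DNA. The genes were taken as all protein-coding genes whose GENCODE M21 symbol starts with Hist1h to Hist4h followed by H1, H2A, H2B, H3 or H4, which gave 67 of the 55357 genes in the deposited count table. They comprised 6 H1 genes, 18 H2A genes, 18 H2B genes, 12 H3 genes and 13 H4 genes. The rule used names only, no measured value.

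Testis cells were isolated from C57BL/6 mice at 7 days of age. Sequencing covered 2 libraries of RNA precipitated with an antibody against DDX20 (DDX20 RIP) and 2 input libraries, for which 10% of the total RNA was taken and no antibody was used. All cells had been exposed to ultraviolet light (200 mJ/cm2 at 254 nm), which crosslinks RNA to protein, before lysis and precipitation. The labels of the RIP libraries give Proteintech catalogue numbers that differ in 1 character. The input is the baseline for the precipitate, and no precipitation with another antibody was analysed here. A higher or lower level is therefore relative to other genes after the scaling given below, and does not mean binding by DDX20. It is not a share of all counts, which can differ in direction where a change is small. The labels name the cells only as mouse testis cells and do not say that replicates came from separate preparations, so the spread behind each p-value may be technical.

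Messages of these genes are unusual among messenger RNAs: most have no introns and end in a conserved stem-loop instead of a poly(A) tail. The stem-loop binding protein SLBP and the U7 small nuclear ribonucleoprotein, which pairs with the message downstream of the stem-loop, direct the cut that makes this end, and the messages are degraded when DNA synthesis stops. DDX20 (Gemin3) is a helicase of the SMN complex, which loads the ring of Sm and LSm proteins onto U7 as it does onto the spliceosomal small nuclear RNAs. Testis at this age holds dividing Sertoli cells and spermatogonia, and testis also uses its own histone genes, among them Hist1h1t, Hist1h2aa and Hist1h2ba. The library kit does not mark strand, and whether poly(A) RNA was selected is not given in the sources used here.

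The stem-loop is shown because it is the shared 3′ feature through which these messages meet SLBP and U7, and because its letters differ between the families described here. The 16 letters in capitals in the Hist1h1c line below, with any base allowed at positions 4, 8, 10 and 13 counted from the first capital, were searched on the sense strand, in the first 300 annotated bases after the stop codon, in GENCODE M21 transcripts of GRCm38. They were found in 44 members, which is 84.6% of the 52 members with at least 16 annotated bases there, and in 2 of 21018 other protein-coding genes (0.01%), H2afx and H2bfm. In the lines below the 16 matched letters are in capitals and 5 bases on each side in lower case, as DNA, 5′ to 3′.
Hist1h1c, chr13:23739507-23739532, plus strand: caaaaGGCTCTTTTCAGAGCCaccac
Hist1h2ao, chr13:21810893-21810918, plus strand: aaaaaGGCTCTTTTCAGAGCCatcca
Hist1h2ae, chr13:23570663-23570688, minus strand: acaaaGGCTCTTTTCAGAGCCattca
Hist2h2ac, chr3:96220413-96220438, minus strand: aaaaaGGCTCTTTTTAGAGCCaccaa
Hist1h2bm, chr13:21722501-21722526, plus strand: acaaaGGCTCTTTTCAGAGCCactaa
Hist1h3c, chr13:23745042-23745067, minus strand: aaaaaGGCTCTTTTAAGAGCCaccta
Hist1h4d, chr13:23581945-23581970, plus strand: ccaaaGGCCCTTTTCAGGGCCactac
Hist1h4i, chr13:22040961-22040986, minus strand: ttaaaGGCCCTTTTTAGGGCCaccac
The form of Hist1h1c, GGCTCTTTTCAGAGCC, was found in 26 members of the H1, H2A, H2B and H3 families and in no H4 gene. Among H4 genes the usual form was that of Hist1h4d, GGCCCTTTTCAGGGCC, found in 7 members, all of them H4. The form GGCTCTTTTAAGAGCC of Hist1h3c was found in 6 members, and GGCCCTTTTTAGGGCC of Hist1h4i in 2.

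Of the 67 genes, 23 and 31 lie in 2 stretches of the Hist1 cluster on chromosome 13, 10 in the Hist2 cluster on chromosome 3, 2 in the Hist3 cluster on chromosome 11, and Hist4h4 lies alone on chromosome 6. Their coding sequences are short, from 312 nt in all H4 genes to 672 nt in the longest H1 gene. Within families the coding sequences are near copies, with a median pairwise identity of 91.4% for H2A, 96.6% for H2B, 97.2% for H3 and 93.9% for H4, against 70.6% for H1. Hist1h2ao and Hist1h2ap have identical coding sequences, as do Hist2h2aa1 and Hist2h2aa2, Hist1h2bq and Hist1h2br, Hist2h3c1 and Hist2h3c2, and Hist1h4m and Hist1h4n. Reads from such copies can be assigned to either gene or to none, depending on counting settings that the sources used here do not give.

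Total counts were 38458014 and 37927689 in the RIP libraries and 21913977 and 21416567 in the input libraries. The histone genes held 4084 and 4438 counts in the RIP libraries (0.0106% and 0.0117% of the totals), against 4097 and 4035 counts in the input libraries (0.0187% and 0.0188%). From 65.4% to 67.4% of nonzero counts in each library were even, as would arise if both mates of a read pair were counted. The depth behind each value may then be overstated, and intervals cover counting error only. All 9 Sertoli cell markers and all 9 germ cell markers examined passed the filter on low counts, whereas of 12 histone, transition protein and protamine genes of late germ cells 1 passed (Tnp1) and 5 were at 0 in every library. Levels below are CPM, counts relative to library size after scaling by the trimmed mean of M values (TMM), with 3 counts being 0.0887 CPM in each RIP library and 0.122 and 0.124 CPM in the input libraries.

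**Figure D1:**
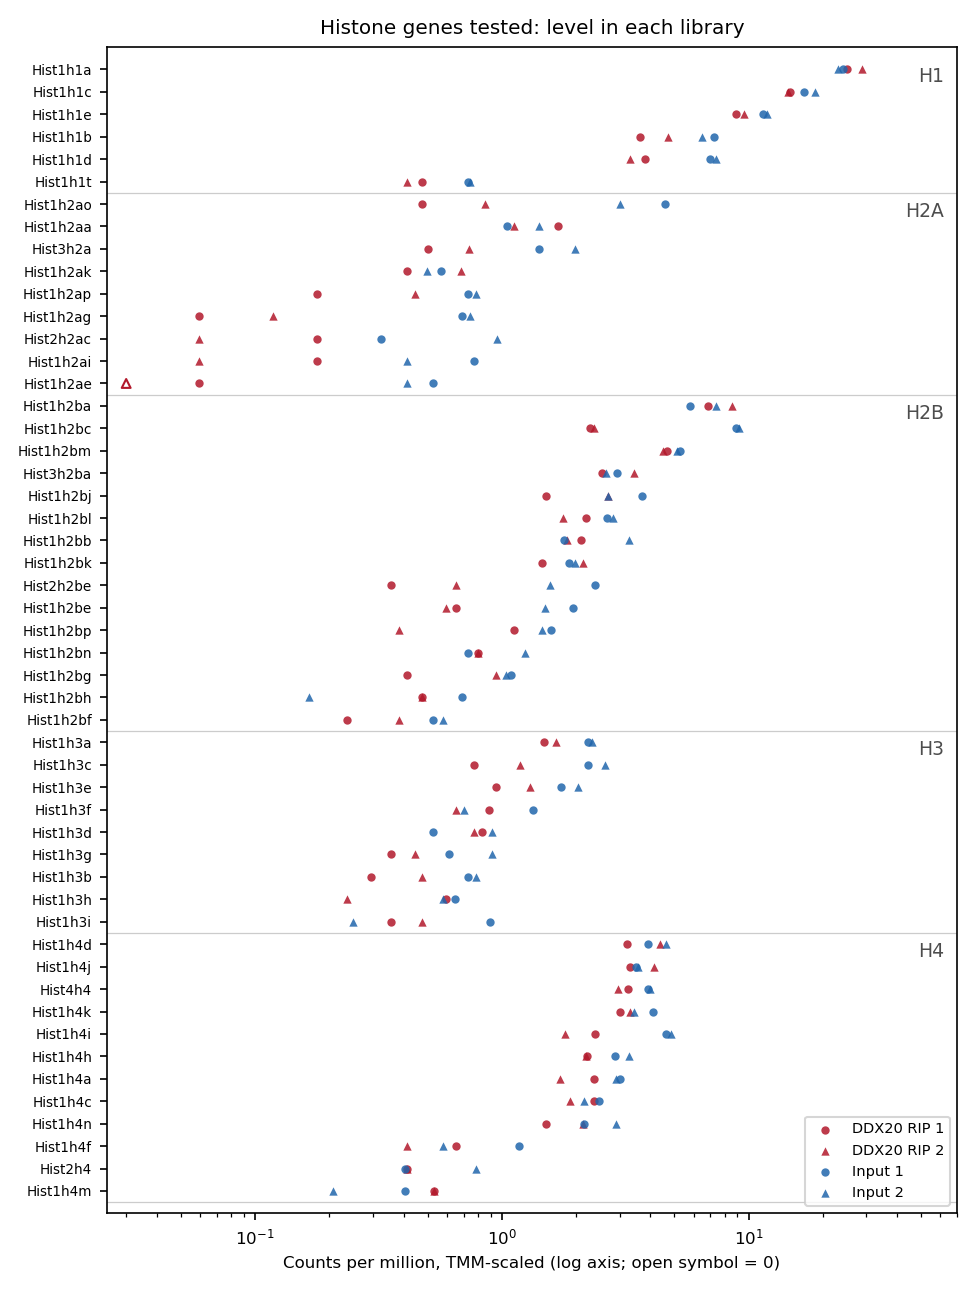
Level of each of the 51 tested histone genes in each library, in TMM-scaled CPM on a log axis, grouped by family; red marks are the DDX20 RIP libraries, blue marks the input libraries, circles replicate 1, triangles replicate 2, and an open mark stands for 0. For Hist1h2ao, Hist1h2bc and Hist1h4i both red marks lie left of both blue ones, while for Hist1h1a both lie right of them, under TMM scaling.

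Histone messages made up a smaller share of the precipitate than of the input. Summed over all 67 genes they reached 120.7 and 131.1 CPM in the RIP libraries, against 166.2 and 167.2 CPM in the input libraries. That is 0.755-fold, a log2 fold change of -0.41 with an SE of 0.039 (n = 2 libraries in each group) and an adjusted p of 1.69e-11 in edgeR's quasi-likelihood test. Each level comes from bulk RNA, so it does not say which cells the messages came from. Of the 51 genes that passed the filter on low counts, 1 was called higher in RIP (adjusted p under 0.05, Benjamini-Hochberg over all genes) and 20 were called lower (39.2%). Over all 17422 genes tested, 38.7% were called higher and 38.6% lower (77.3% in either direction), so the share of members called lower was close to the background. The median log2 fold change of the 51 genes was -0.53, against -0.05 over all genes tested, and 42 of them lay below 0. In 32 of the 51 both RIP libraries lay below both input libraries, and in 2 both lay above. The share of all genes with groups apart in this way was not computed, so these counts only describe the list. Without input replicate 1 and without input replicate 2, 9 and 11 genes were called lower.

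The filter touched this count. It asked for 0.334 or more counts relative to total counts, on the CPM scale but without TMM, in at least 2 libraries, and 38 of the 51 genes passed it in all 4 libraries, of which 1 was called higher and 14 lower. Another 10 passed through the input libraries and not through both RIP libraries, and 6 of these were called lower. Hist1h2bh and Hist1h4m passed through the RIP libraries and not through both input libraries, and neither was called. A selection added after seeing the data took the 31 genes with a mean of 1 CPM or more over the 4 libraries. Of these 1 was called higher and 15 lower, with a median log2 fold change of -0.47. Over all genes tested 38.7% were called higher and 38.6% lower. With a change of at least 2-fold also required, 14 genes were called lower and Hist1h1a dropped out, while at an unadjusted p of 0.05 in the same edgeR test 1 was higher and 21 were lower.

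Beyond the 51, 16 genes had too few counts to test. Hist2h2aa1, Hist2h2aa2, Hist2h2bb, Hist2h3b and Hist2h3c1 were at 0 in every library. Every 150-nt stretch of these 5 genes occurs in another gene, so 0 counts says nothing of whether the messages were present. The remaining 11 were Hist1h2ab, Hist1h2ac, Hist1h2ad, Hist1h2af, Hist1h2ah, Hist1h2an and Hist2h2ab of the H2A family, Hist1h2bq and Hist1h2br of H2B, Hist2h3c2 of H3 and Hist1h4b of H4, with at most 12 counts in any library. The plot of level against shared sequence shows where these genes lie.

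**Figure D2:**
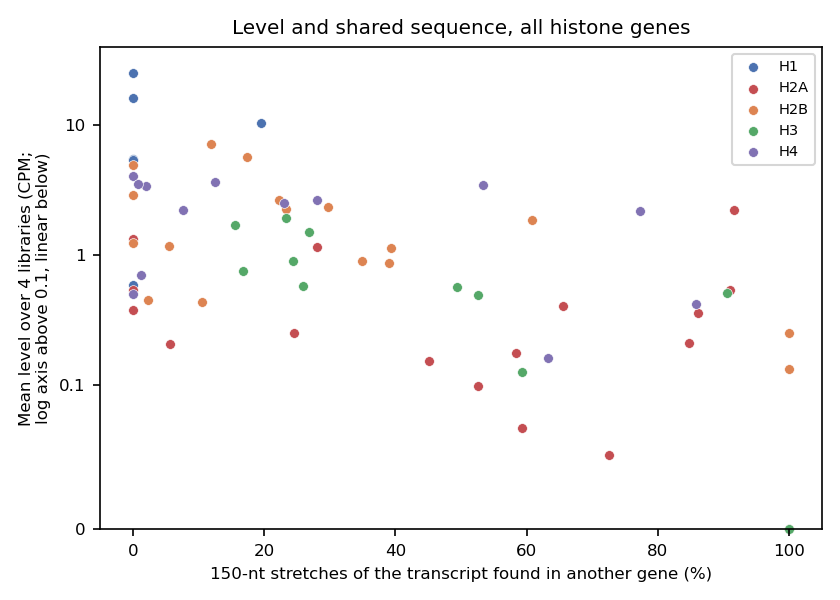
Mean level over the 4 libraries (CPM; log axis above 0.1, linear below) against the percentage of 150-nt stretches of each histone gene's transcript that occur in another gene, coloured by family. The 5 genes at 0 counts lie on top of each other at 100%, and Hist1h1a and Hist1h1c, at the top, lie at 0%.

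The linker histone genes differed among themselves. H1 binds the DNA where it enters and leaves the nucleosome, and its somatic genes encode subtypes that are more divergent in sequence than copies of a core histone. Summed over the 6 genes, H1 reached 56.5 and 61.3 CPM in the RIP libraries, against 67.5 and 68.2 CPM in the input libraries, a log2 fold change of -0.20 ± 0.0535 (SE, 2 libraries each) with an edgeR adjusted p of 0.000914. This small decrease lost its call without RIP replicate 1 (-0.11), without input replicate 1 (-0.19) and without input replicate 2 (-0.19). Within the sum 1 gene was called higher, 4 were called lower and Hist1h1t was not called, beside 38.7% higher and 38.6% lower over all genes.

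Hist1h1a, at chr13:23763666-23764406, had 25.1 and 28.9 CPM in the RIP libraries, against 24.2 and 23.1 CPM in the input libraries. It was the only histone gene called higher, by 0.19 ± 0.0822 on the log2 scale (edgeR adjusted p = 0.0384), but scaling by total counts or by upper quartile turned its direction, to -0.16 and -0.15. The call was also lost in DESeq2 (adjusted p = 0.105), without RIP replicate 2 (0.12, adjusted p = 0.293 in edgeR), and without input replicate 1 (0.24, adjusted p = 0.148 in edgeR) or input replicate 2 (0.16, adjusted p = 0.292 in edgeR). No stem-loop letters were found in the 48 annotated bases after its stop codon, and none of its 150-nt stretches occurs in another gene. Per kb of annotated exon it was the most abundant of all 67 genes, with 36.4 CPM per kb in RIP and 31.9 CPM per kb in input, and it held 20.8% and 22% of all histone counts in the RIP libraries, against 14.6% and 13.8% in the input libraries.

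Hist1h1d had 3.81 and 3.31 CPM in the RIP libraries, against 7.01 and 7.37 CPM in the input libraries, and fell by 1.01 ± 0.169 on the log2 scale (edgeR adjusted p = 2.32e-06). Its groups were well apart, and its coding sequence is 83.9% identical to that of Hist1h1e. Hist1h1c had 14.7 and 14.4 CPM in RIP, against 16.8 and 18.6 CPM in input (log2 fold change -0.28 ± 0.0982, edgeR adjusted p = 0.00993). Hist1h1e had 8.93 and 9.58 CPM in RIP, against 11.4 and 11.9 CPM in input (-0.34 ± 0.12, adjusted p = 0.0124). The decreases of Hist1h1c and Hist1h1e are small, with RIP libraries just below input libraries, and neither passed the threshold in DESeq2 (adjusted p = 0.0903 and 0.0973). Hist1h1c lost its edgeR call without RIP replicate 1 (-0.26), RIP replicate 2 (-0.23) and input replicate 2 (-0.21), and Hist1h1e without each of RIP replicate 1 (-0.25), RIP replicate 2 (-0.35), input replicate 1 (-0.35) and input replicate 2 (-0.30). Exons of Hist1h1e and Hist1h2be overlap in the annotation, and without strand their reads cannot be told apart there. Hist1h1b was also called lower (-0.71). Hist1h1t, the H1 gene of spermatocytes, was near the filter with 0.473 and 0.414 CPM in RIP, against 0.730 and 0.745 CPM in input, and was not called (-0.73 ± 0.498, edgeR adjusted p = 0.182).

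The H2A genes stood furthest below input. H2A pairs with H2B in the nucleosome, so equal amounts of both proteins are needed. The H2A sum reached 4.22 and 4.58 CPM in the RIP libraries, against 12.2 and 11.6 CPM in the input libraries, 0.371-fold, a log2 fold change of -1.43 ± 0.142 (SE, 2 libraries each; edgeR adjusted p = 3.27e-11). For every 100 H1 counts there were 7.47 H2A counts in both RIP libraries, against 18.1 and 16.9 in the input libraries. For every 100 H2B counts there were 15.1 and 14.4 H2A counts in the RIP libraries, against 28.7 and 27.0 in the input libraries. The sum includes genes that were not tested, so no member enters or leaves it through a filter. Its value moved somewhat, to -1.347 with no filter and -1.553 with a stricter one, against -1.43 with the filter on low counts used here. Of the 4 H2A genes that passed this filter in all 4 libraries, 2 were called lower (38.6% of all genes were) and 2 were not called, with a median log2 fold change of -0.70. The other 5 tested H2A genes passed it through the input libraries, where they are high, and had to differ, so their lower calls (5 of 5) are given as a description.

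Hist1h2ao, at chr13:21810465-21810944, had the most counts of them in the input, with 0.473 and 0.857 CPM in the RIP libraries, against 4.58 and 3.02 CPM in the input libraries. It fell by 2.51 ± 0.314 on the log2 scale (edgeR adjusted p = 9.26e-09), and its groups did not overlap although its input libraries differed. Because 91.5% of its 150-nt stretches occur in other genes, this value belongs to Hist1h2ao and its copies together. Hist1h2ae had 2 and 0 counts in the RIP libraries, against 13 and 10 in the input libraries, a RIP-to-input ratio of scaled counts of 0.0628 (exact 95% interval 0.00717 to 0.254, counting error only), and its fitted log2 fold change was -3.81 ± 0.93 (edgeR adjusted p = 0.000441). That fitted value was -6.7 without RIP replicate 1 and -2.86 without RIP replicate 2, and without input replicate 1 the gene was not tested. Hist3h2a, of the small Hist3 cluster at chr11:58954685-58956830, had 0.502 and 0.739 CPM in RIP, against 1.42 and 1.99 CPM in input, and fell by 1.45 ± 0.387 on the log2 scale (edgeR adjusted p = 0.00114); without input replicate 2 it was not called (-1.19, adjusted p = 0.078 in edgeR). Its exons overlap those of Trim17. Besides Hist1h2ae, the genes that passed the filter through the input libraries were Hist1h2ag, Hist1h2ai, Hist1h2ap and Hist2h2ac.

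Of the 9 tested H2A genes, Hist1h2aa, Hist1h2ak and Hist2h2ac have no 150-nt stretch in common with another gene. Hist1h2aa, the testis H2A gene, had 1.69 and 1.12 CPM in the RIP libraries, against 1.05 and 1.41 CPM in the input libraries, so the groups overlapped (0.19 ± 0.348, edgeR adjusted p = 0.625). Hist1h2ak was not called either, with a log2 fold change of 0.04. Hist2h2ac, tested through its input libraries, had 6 and 2 counts in RIP, against 8 and 23 in input, and a log2 fold change of -2.39. The pseudogene Hist1h2al, outside the rule but with an H2A name, had 65 and 56 counts in RIP, against 186 and 129 in input. It was called lower too (-1.85 ± 0.213, edgeR adjusted p = 1.57e-09). How closely its sequence matches the H2A genes was not measured.

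The H2B genes spread from no clear difference to a clear decrease. Their sum reached 28.0 and 31.9 CPM in the RIP libraries, against 42.5 and 42.8 CPM in the input libraries (-0.51 ± 0.0714, SE, 2 libraries each; edgeR adjusted p = 7.1e-08). Of 15 tested, 5 were called lower and 10 were not called. Of the 12 that passed the filter on low counts in all 4 libraries, 4 were called lower (38.6% of all genes were). Hist1h2bc, at chr13:23684199-23692908, had 2.28 and 2.36 CPM in the RIP libraries, against 8.92 and 9.19 CPM in the input libraries. Replicates of this gene lay close together and the groups far apart, a decrease of 1.96 ± 0.173 on the log2 scale (edgeR adjusted p = 2.73e-12). Its annotated locus spans further than its coding sequence needs, and no stem-loop letters were found in the stretch searched.

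Hist2h2be, of the Hist2 cluster on chromosome 3, had 0.355 and 0.650 CPM in the RIP libraries, against 2.39 and 1.57 CPM in the input libraries (-1.97 ± 0.397, edgeR adjusted p = 4e-05). It passed the filter on low counts through the input libraries, where it is high, so its lower call is given as a description. Without input replicate 1 its change was -1.62 and was not called (edgeR adjusted p = 0.0537). Hist1h2bm had 4.67 and 4.49 CPM in RIP, against 5.27 and 5.13 CPM in input, and was not called (-0.18 ± 0.171, edgeR adjusted p = 0.331). Hist1h2ba, the testis H2B gene, lies beside Hist1h2aa on chromosome 13, from 23933773 to 23934156 on the opposite strand. It had 6.83 and 8.57 CPM in the RIP libraries, against 5.80 and 7.37 CPM in the input libraries, overlapping groups, and was not called (0.23 ± 0.155, edgeR adjusted p = 0.181), though without RIP replicate 1 it passed (0.42, edgeR adjusted p = 0.0402). The remaining genes called lower were Hist1h2be, Hist1h2bj and Hist1h2bp.

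H3 and H4 form the tetramer at the centre of the nucleosome. The H3 sum reached 6.62 and 7.35 CPM in the RIP libraries, against 11.1 and 11.1 CPM in the input libraries (-0.67 ± 0.13, SE, 2 libraries each; edgeR adjusted p = 2.15e-05). Single H3 genes were low, and of 9 tested 2 were called lower and 7 were not called (38.6% of all genes were called lower). Hist1h3c had 0.769 and 1.18 CPM in the RIP libraries, against 2.23 and 2.61 CPM in the input libraries, a decrease of 1.31 ± 0.319 on the log2 scale (edgeR adjusted p = 0.000448). Hist1h3e had 0.946 and 1.301 CPM in RIP, against 1.74 and 2.03 CPM in input (-0.74 ± 0.327, adjusted p = 0.0387 in edgeR). Its groups did not overlap, but the call was lost without RIP replicate 1 (-0.495), input replicate 1 (-0.83) or input replicate 2 (-0.63), and in DESeq2 (adjusted p = 0.153). Hist1h3a had 1.48 and 1.66 CPM in RIP, against 2.23 and 2.32 CPM in input, and was not called (-0.54 ± 0.277, adjusted p = 0.0777 in edgeR). Hist1h3d had overlapping groups, with 0.828 and 0.769 CPM in RIP, against 0.527 and 0.911 CPM in input (0.15 ± 0.459, adjusted p = 0.771 in edgeR).

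The H4 sum reached 25.3 and 26.0 CPM in the RIP libraries, against 32.8 and 33.4 CPM in the input libraries (-0.37 ± 0.0734, SE, 2 libraries each; edgeR adjusted p = 3.22e-05). Of 12 H4 genes tested, 2 were called lower and 10 were not called (38.6% of all genes were called lower). Hist1h4i, at chr13:22040636-22041362, had 2.39 and 1.80 CPM in the RIP libraries, against 4.62 and 4.84 CPM in the input libraries, a decrease of 1.17 ± 0.217 on the log2 scale (edgeR adjusted p = 1.16e-05). Both RIP libraries lay well below both input libraries, and 2.08% of its 150-nt stretches occur elsewhere. Hist1h4d had 3.22 and 4.38 CPM in RIP, against 3.93 and 4.64 CPM in input, and Hist1h4j had 3.31 and 4.14 CPM in RIP, against 3.48 and 3.56 CPM in input. For both the groups overlapped and neither was called, with log2 fold changes of -0.17 ± 0.197 and 0.08 ± 0.202. Hist4h4, the single histone gene on chromosome 6, had 3.25 and 2.96 CPM in RIP, against 3.93 and 3.97 CPM in input, a difference that was not called (-0.35 ± 0.202, edgeR adjusted p = 0.115). Hist1h4m had 18 counts in each RIP library, against 10 and 5 in the input libraries, and was not called (0.79 ± 0.58, edgeR adjusted p = 0.216). Hist1h4a was called lower at the threshold (-0.53, edgeR adjusted p = 0.0498).

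**Figure D3:**
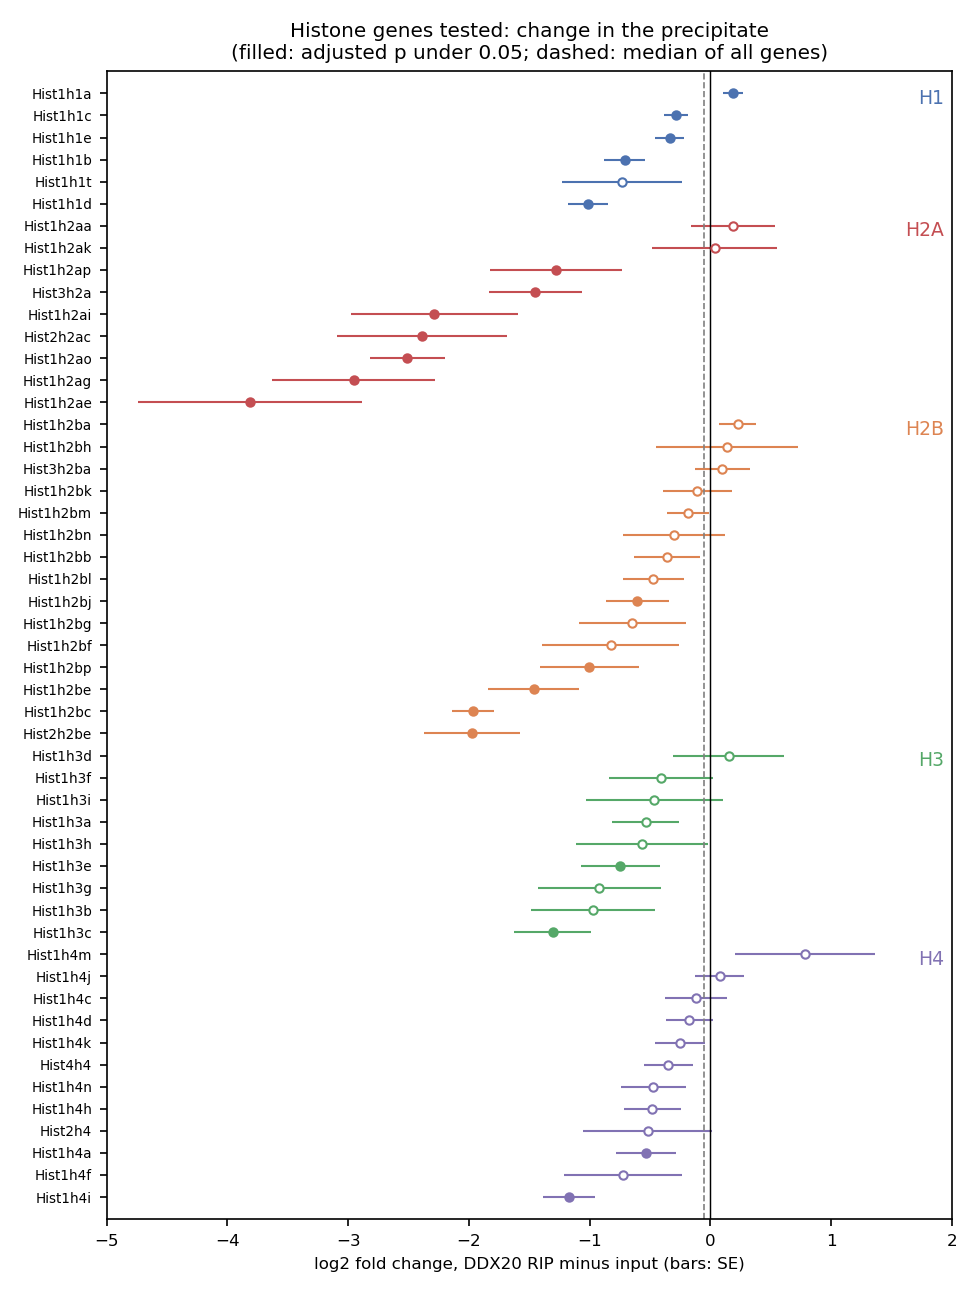
Log2 fold change, RIP minus input, of the 51 tested histone genes with its standard error, grouped by family and ordered within it; filled marks passed an adjusted p of 0.05, and the dashed line is the median of all genes, -0.05. The 7 filled H2A marks lie between -3.81 and -1.28, 5 of them genes that passed the filter through the input libraries, and the 1 filled mark right of 0 is Hist1h1a, which lies left of 0 when scaled by total counts or upper quartile.

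Differences between families were set beside the spread between libraries in pairs, a comparison added after seeing the data. The H2A change lay 1.23 ± 0.152 below that of H1, 0.92 ± 0.159 below that of H2B, 0.76 ± 0.193 below that of H3 and 1.06 ± 0.16 below that of H4 on the log2 scale. The log2 ratio of H2A to H2B was -2.73 and -2.80 in the RIP libraries, against -1.80 and -1.89 in the input libraries, so the groups did not overlap. The H1 change lay 0.47 ± 0.141 above that of H3, 0.31 ± 0.0892 above that of H2B and 0.16 ± 0.0908 above that of H4. The H3 change lay 0.30 ± 0.149 and the H2B change 0.14 ± 0.102 below that of H4, and the H2B change lay 0.16 ± 0.148 above that of H3. With 2 libraries a group the exact two-sided permutation test cannot give a p below 0.333, which all 10 pairs gave (0.333 after Benjamini-Hochberg adjustment). H2A genes made up 3.501% and 3.493% of histone counts in the RIP libraries, against 7.347% and 6.914% in the input libraries.

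**Figure D4:**
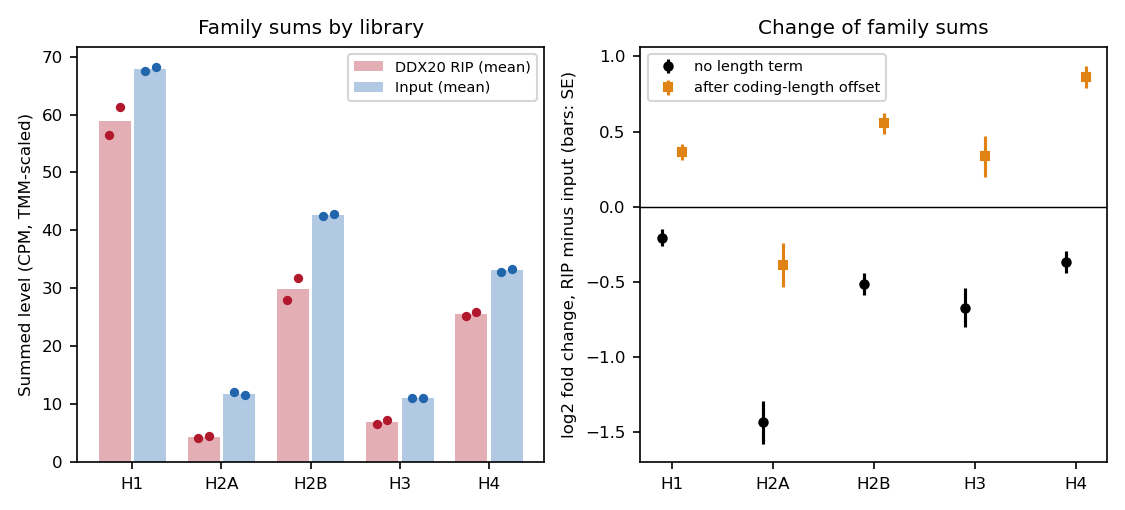
Left, summed level of each histone family (CPM), with bars for the mean of 2 libraries and dots for single libraries, RIP in red and input in blue. Right, log2 fold change of each sum, RIP minus input, with its standard error, without a length term (black) and after an offset for coding length (orange); the H2A sum is below 0 in both, while the H1, H2B, H3 and H4 sums are above 0 after the offset.

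Coding length moved with the change over all genes, and histone genes are at its short end. The smooth trend of log2 fold change on coding length passed through -1.34 at the shortest members and -0.67 at the longest, and the median of the 51 genes after an offset for this trend was 0.45, against -0.11 over all genes. After the offset 19 of the 51 genes were called higher and 6 lower, against 32.1% higher and 41.1% lower of the 14686 genes with a coding length. The sums then turned to 0.36 ± 0.054 for H1, 0.56 ± 0.0712 for H2B, 0.34 ± 0.134 for H3 and 0.86 ± 0.0746 for H4. H2A stayed below 0 at -0.39 ± 0.146 (edgeR adjusted p = 0.0151). In this fit 0 lay above the median of all genes, and no sum was tested against that median. Of 12 H4 genes 9 were called higher after the offset, and of 9 H2A genes 1 was called higher and 3 lower (Hist1h2ao, and Hist1h2ae and Hist1h2ag, which passed the filter through the input libraries). Hist1h2bc (-0.92 ± 0.181, edgeR adjusted p = 9.01e-06) and Hist1h2ao (-1.49 ± 0.32, edgeR adjusted p = 4.11e-05) were still called lower, and Hist1h2ba (1.27 ± 0.153) and Hist1h2aa (1.22 ± 0.36) were called higher. Coding sequences of H2A genes (387 to 393 nt) and of H2B genes (381 to 384 nt) differ little in length. What accounts for the length trend was not tested.

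**Figure D5:**
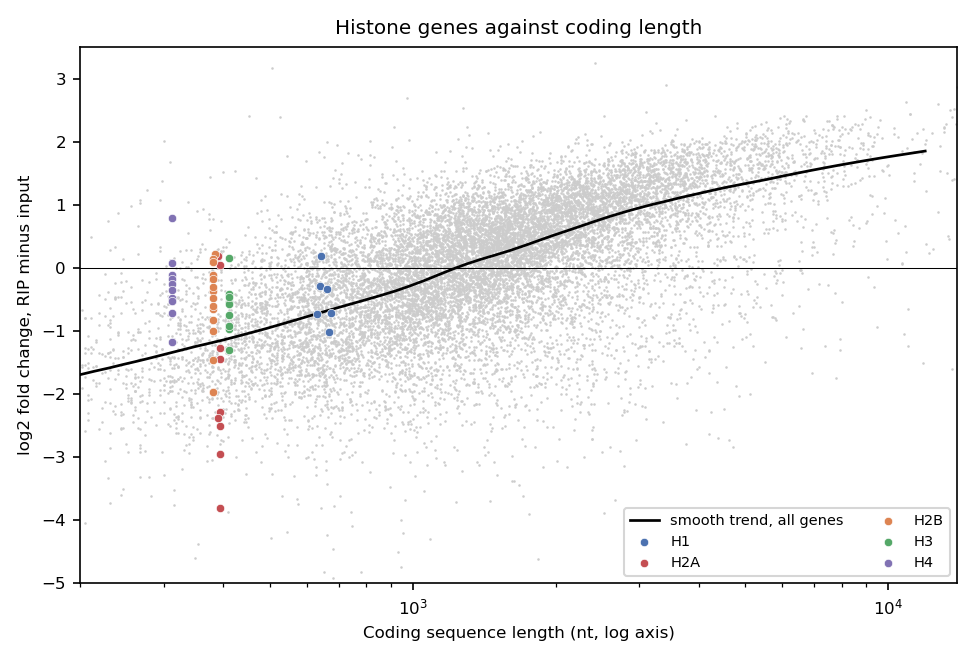
Log2 fold change, RIP minus input, against coding sequence length (nt, log axis) for the genes with a coding length (grey; 113 of 14686 lie outside the axes), with the smooth trend over all of them as a line and the 51 tested histone genes coloured by family. H4 genes at 312 nt lie above the line, and most H2A genes lie below it.

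Changes did not sort by the stem-loop letters alone. The 19 tested genes with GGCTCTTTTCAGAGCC ran from -3.81 in Hist1h2ae to 0.15 in Hist1h3d on the log2 scale, with 11 called lower and a median of -0.83. Of the 7 H4 genes with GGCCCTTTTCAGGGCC 0 were called in edgeR, DESeq2 or limma-voom, and 1 was lower at an unadjusted p of 0.05 in edgeR, with a median of -0.35. Here the letters cannot be told apart from the family, since this form occurred in H4 genes alone. Over all forms, 37 tested genes had the letters, of which 16 were called lower, with a median of -0.60. Among the 14 in which they were not found 1 was called higher and 4 lower, with a median of -0.38. Many of these 14, such as Hist1h1b, Hist1h2ba and Hist1h4k, have no annotated bases after the stop codon, so nothing could be found there. These counts therefore do not show how genes lacking the letters change. Over all genes 38.6% were called lower. Where the annotated transcript went on for 100 bases or more past the stem-loop, 9 of 19 tested genes were called lower, and where it ended sooner 7 of 18 were.

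The 2 stretches of the Hist1 cluster had similar counts, beside 38.6% of all genes called lower. The Hist1 stretch on chromosome 13 that holds Hist1h2ao and Hist1h4i had 8 of 19 tested genes called lower (median -0.47), and the stretch that holds Hist1h1a and Hist1h2bc had 9 of 26 lower and 1 higher (median -0.53). In the Hist2 cluster 3 of 10 genes could be tested, of which 2 were called lower. Both of these, Hist2h2ac and Hist2h2be, passed the filter on low counts through the input libraries. The 13 genes with no 150-nt stretch in another gene included 1 called higher and 5 lower, with a median of -0.28, and the 10 tested genes with 50% or more of their stretches shared included 4 called lower, with a median of -0.52.

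Replication-independent histone genes, most of which give polyadenylated messages outside S phase as well, also lay mostly below input. Of 11 tested, 10 were called lower and 1 higher, with a median log2 fold change of -0.72, beside 38.6% lower and 38.7% higher over all genes. Those called lower include H2afx (-0.51), in which the stem-loop letters were found, so the list is not free of such messages. Most of them have short coding sequences, such as 411 nt in H3f3b, and the trend over all genes was -1.14 at 400 nt. H3f3b, which encodes the replacement histone of the H3 family, had 521.9 ± 3.54 CPM in RIP and 714.3 ± 10.2 CPM in input (SD, n = 2 each), a decrease of 0.45 ± 0.0247 on the log2 scale (edgeR adjusted p = 6.14e-18). H1f0, a linker histone of resting and differentiated cells, fell by 0.16 ± 0.0291 on the log2 scale. H2afy, encoding macroH2A, was called higher (0.27 ± 0.057) under TMM scaling, a smaller difference than the one by which total counts move the median of all genes (from -0.05 with TMM to -0.40). Per kb of annotated exon H3f3b had 175.4 CPM per kb in RIP and 240.0 CPM per kb in input, above each of the 67 replication-dependent genes.

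Genes that make and mature the 3′ end of histone messages moved in both directions. Of 21 tested, 13 were called higher and 8 lower (median 0.36), beside 38.7% higher and 38.6% lower over all genes. Cpsf1 and Sympk, which encode the largest CPSF subunit and the scaffold symplekin of the cleavage machinery, rose by 1.952 ± 0.0314 and 1.31 ± 0.0336 on the log2 scale. Snrpb and Snrpe, encoding Sm proteins that U7 shares with spliceosomal particles, fell by 0.30 ± 0.0278 and 1.97 ± 0.0392. Slbp, Lsm10 and Lsm11 were chosen after their values were seen. Slbp fell by 0.48 ± 0.0577 on the log2 scale, and of the 2 proteins that mark the U7 ring, the message of Lsm10 was lower (-1.45) and that of Lsm11 higher (0.73). These genes also differ in coding length, with 4326 nt in Cpsf1 and 1086 nt in Lsm11, against 279 nt in Snrpe and 369 nt in Lsm10. The part of coding length in this list was not tested. The U7 RNA gene Rnu7 had 0 counts in all 4 libraries, the input libraries included. The sources used here do not say whether the libraries could capture a small RNA, so 0 counts says nothing of whether U7 was present.

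Of 9 genes that switch on histone transcription 5 were called higher, 2 lower and 2 were not called, beside 38.7% higher and 38.6% lower over all genes. Npat, the coactivator recruited to histone loci, rose by 1.25 ± 0.0517 on the log2 scale and Yy1 by 0.94 ± 0.0485, while E2f1 fell by 0.36 ± 0.0701 and Ccne2 by 0.52 ± 0.108. Of 16 genes for translation and decay of histone messages 7 were called higher, among them Smg1 (1.90) and Exosc10 (0.96). The other 9 were called lower, among them Lsm4 (-1.32) and Lsm6 (-0.71). Coding lengths are 10977 nt in Smg1 and 2664 nt in Exosc10, against 417 nt in Lsm4 and 243 nt in Lsm6. Of 20 histone chaperone genes 14 were called higher, 5 lower and 1 not called, with a median of 0.76. Ssrp1, a subunit of the FACT complex, rose by 0.94 ± 0.0255, while Npm1 fell by 0.37 ± 0.0269 on the log2 scale.

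Messages of S phase proteins, made in the same cells at the same time as histone messages, lay on the other side of input. Of 16 genes 12 were called higher and 4 lower, with a median of 1.17, beside 38.7% higher and 38.6% lower over all genes. Together the 16 reached 8364 and 8244 CPM in the RIP libraries, against 3031 and 3025 CPM in the input libraries. Mcm6 of the replication helicase rose by 1.55 ± 0.0255, while Tyms, the thymidylate synthase gene, fell by 0.75 ± 0.0414 on the log2 scale. Their coding sequences are 2466 nt and 924 nt long, and the part of coding length was not tested. Cell type markers moved with the comparison as well: summed levels of the 9 Sertoli cell markers were 2174 and 2170 CPM in RIP, against 3499 and 3470 CPM in input, and those of the 9 germ cell markers 469.9 and 466.6 CPM in RIP, against 938.7 and 946.5 CPM in input. Of the Sertoli markers 2 were called higher and 6 lower, and the germ cell markers gave the same counts. Their part in the histone result was not tested.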

How the data were processed

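RNA of 2 DDX20 RIP libraries and 2 input libraries was sequenced as 150-nt read pairs after preparation with the NEBNext Ultra RNA kit, per the labels' protocols. The authors deposited a table of raw read counts per Ensembl gene. The tools named in the submitters' processing notes are STAR 2.7.2b, featureCounts, SAMtools, cutadapt 4.1 and Trimmomatic 0.36, and the build is GRCm38. Not given in the sources used here are their settings, the treatment of reads that match several genes and the annotation release. Symbols, lengths, coordinates and transcript sequences came from GENCODE M21 (GRCm38), which named 52081 (94.1%) of 55357 identifiers, 35 of them with the same version number; 3 pseudogenes that match the name pattern were left out.

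Groups were taken from the sample titles. Genes kept by filterByExpr (17422) were scaled by TMM (factors 0.880 and 0.892 for RIP, 1.127 and 1.130 for input) and compared by edgeR's robust quasi-likelihood test (edgeR 4.0.16, R 4.3.3). P-values were adjusted over all genes by Benjamini-Hochberg, and calls needed an adjusted p under 0.05. The common biological coefficient of variation was 0.032, and replicates were kept as separate samples. Each standard error was obtained as log2 fold change over the root of F. Family sums, over tested and untested members, replaced the members in a second fit. Alternatives were RLE, upper-quartile and total-count scaling, other filters, DESeq2 1.42.0, limma-voom (limma 3.58.1), a replicate block, leaving out each library, halved counts, and an offset for coding length (loess, span 0.3) in the 14686 genes with one. The steps were checked on simulated data. Values are named for the 3 most abundant tested genes of each family, those with the highest and the lowest fold change, and the called genes of each further list with the highest level, by at most 2 per direction; genes named with fewer values fall outside this rule. The members and gene lists were chosen with earlier results of these data known.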

Additional observations from a re-analysis of the deposited data

How the results depend on the processing

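The H2A sum stayed below 0 and past the threshold under all alternatives, from -1.78 with total counts to -0.39 after the coding-length offset. After that offset the median of all genes was -0.11, and the H2A sum was not tested against it. Total counts and upper-quartile scaling moved the median of all genes to -0.40 and -0.39 and their calls to 4994 higher and 8845 lower, and 5022 higher and 8798 lower. The histone median moved with it to -0.88 and -0.87, as a scaling moves all genes alike; histone calls were 0 higher and 34 lower, and 0 higher and 33 lower. Under these scalings Hist1h1a (-0.16 and -0.154), Hist1h2aa (-0.158 and -0.15), Hist1h2ba (-0.12 and -0.115), Hist1h3d (-0.194 and -0.188) and Hist1h4j (-0.267 and -0.261) turned below 0. DESeq2 called 0 histone genes higher and 13 lower, beside 6310 higher and 5557 lower over all genes. The stricter filter, halved counts and a 2-fold minimum each called 0 histone genes higher, and with the stricter filter Hist1h4j turned to -0.041. With no filter the H1 sum (-0.12, edgeR adjusted p = 0.0759) missed the threshold, and the histone median (-0.497) lay -0.125 from that of all genes (-0.372), against -0.478 with the filter.

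After the coding-length offset 19 genes were called higher and 6 lower, the median was 0.45, and the sums of H1 (0.36), H2B (0.56), H3 (0.34) and H4 (0.86) turned above 0, as did Hist1h1c (0.29), Hist1h1e (0.21), Hist1h2bm (0.86), Hist1h3a (0.45), Hist1h3e (0.24), Hist1h4d (1.03), Hist4h4 (0.86) and Hist1h4i (0.032). The offset's own construction moves short genes up.

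Leaving out 1 library, with the lone library assumed to vary like the other group, gave 0 to 2 genes higher and 9 to 15 lower, and an H1 sum of -0.22 to -0.11. These omissions gave a range through 0 for Hist1h3d (-0.17 to 0.597, lowest without input replicate 1), Hist1h2aa (-0.092 to 0.493, lowest without RIP replicate 1), Hist1h4d (-0.37 to 0.069, highest without RIP replicate 1) and Hist1h4j (-0.049 to 0.271, lowest without RIP replicate 2). Of 288 values of 21 named genes over the alternatives, 222 kept direction and side of the threshold, 26 lost their call, 17 gained one and 23 changed sign; the cause was not tested. RIP and input libraries with the same replicate number showed no shared shift (correlation of deviations -0.00103). This cannot show whether they came from the same preparation, which the labels do not say. The replicate block gave 1 gene higher and 20 lower, with family sums of -0.21 (H1), -1.43 (H2A), -0.51 (H2B), -0.67 (H3) and -0.37 (H4). Depth limits single H2A and H3 genes most, many of which had under 30 counts in a library.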

Other observations

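Markers of further cell types that testis preparations can hold also differed between precipitate and input. Over all genes 38.7% were called higher and 38.6% lower. All 6 Leydig cell markers were called lower, with summed levels of 224.8 and 222.0 CPM in the RIP libraries, against 402.9 and 396.0 CPM in the input libraries. All 5 macrophage markers were called lower, with 42.4 and 40.8 CPM in RIP, against 121.4 and 117.7 CPM in input, and so were all 5 red blood cell markers, with 76.2 and 76.8 CPM in RIP, against 268.6 and 272.1 CPM in input. Of 5 endothelial markers 4 were called lower, with 36.1 and 34.1 CPM in RIP, against 90.9 and 92.4 CPM in input. Peritubular myoid and stromal markers summed to 5852 and 5675 CPM in RIP, against 2894 and 2899 CPM in input, mainly through Col1a1, a collagen chain gene, with 2 of 6 called higher and 3 lower. The part of these cells in the histone result was not tested. Replicates of the 51 tested histone genes differed by a median of 0.39 on the log2 scale between the RIP libraries and 0.191 between the input libraries, computed with 0.1 CPM added, and by more than 1 for 3 genes in each group. The pseudogene Hist3h2bb-ps had 22 and 0 counts in the RIP libraries, against 12 in each input library.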
